A study of Drosophila melanogaster with 12 samples.

Results

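The microRNA bantam was followed through 12 small RNA libraries of Drosophila melanogaster. A read was assigned to bantam if it began with the first 18 nt of the 23 nt bantam sequence, which gave 26 distinct sequences of the 95922 that the files list in all. Ovaries of krimp mutant and of krimp heterozygous females each gave 1 library of total small RNA, 1 of Piwi-bound and 1 of Aub-bound RNA. AGO3-bound RNA was taken from krimp heterozygous, aub mutant and Oregon R wild-type ovaries. The other 3 libraries held RNA bound to ectopic myc-Piwi, myc-Aub or myc-AGO3 in OSC, an ovarian somatic cell line, under krimp knockdown. The sources used here name neither the alleles nor the age of the flies, and whole ovaries mix germline and somatic cells. Small RNA reads do not measure the krimp or aub transcripts or markers of cell type, so genotype and tissue rest on the labels. For the krimp mutant Aub library, 1 label field adds the word control to mutant. With 1 library per group there was no measure of replicate spread, and differences are given without p-values.

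MicroRNAs are cut from hairpin precursors by Drosha and Dicer and are loaded into proteins of the Argonaute subfamily, chiefly AGO1 in flies, where the seed near the 5′ end selects the mRNAs to be repressed. bantam is a Drosophila growth regulator that represses the cell death gene hid, and it is known in the ovary for its part in keeping germline stem cells. Piwi, Aub and AGO3 form the other subfamily and carry piRNAs, which are made without Dicer, and Krimper is a germline Tudor domain protein of that pathway. The level of bantam in immunoprecipitates of these proteins is given beside its level in total RNA.

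The sequence is shown because every count here rests on its 5′ end, with the seed (bases 2 to 8) in capitals and T written for U as in the files. The bantam gene, mir-ban, lies on chromosome arm 3L.
bantam, 23 nt: tGAGATCAttttgaaagctgatt

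In total small RNA, bantam made up a smaller share of listed reads in krimp mutant than in krimp heterozygous ovaries. The krimp mutant total library listed 519945 bantam reads among 20695092 listed reads, or 2.51% (exact Clopper-Pearson 95% interval 2.51 to 2.52). The krimp heterozygous total library listed 1134603 among 24979879, or 4.54% (4.53 to 4.55). The mutant share was 1.81-fold lower, a log2 ratio of -0.85, and the intervals did not overlap. Intervals here cover counting error only, since PCR reads without molecular identifiers are not independent molecules. Only sequences with at least 100 reads are listed, so these sums are not library depths. A share can also be lower because other listed RNAs are more abundant. In bulk ovaries this, fewer cells that make bantam and less bantam per cell cannot be told apart.

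To set this ratio against other small RNAs, listed sequences were grouped into families that share their first 18 nt. By reads, bantam had rank 6 of 7005 families in mutant total RNA and rank 2 of 19757 in heterozygous total RNA. Of the 4536 families listed in both total libraries, 1357 had a share more than 1.5-fold lower in the mutant, which is 29.9%, and 2063 had one more than 1.5-fold higher. Families with no sequence of at least 100 reads in 1 of the libraries are left out, and the mutant listed far fewer families. These counts therefore miss families that fell under the minimum in the mutant and do not give the balance over all families. A narrower set held 48 families, bantam included, of modal length 21 to 24 nt with a mean of at least 10000 reads in the total libraries and few reads starting up to 3 nt away. They are called single-start families, a trait of microRNAs, but they were not matched to a microRNA reference and some may be piRNAs. Of these 48 families, 13 were more than 1.5-fold lower in the mutant, which is 27.1%, and 7 were more than 1.5-fold higher. Their median log2 ratio was -0.24, and 9 of them had a lower ratio than bantam. Over the reads of single-start families in place of all listed reads, 4 of the 48 were more than 1.5-fold lower, and bantam, at a log2 ratio of -0.42, was not among them. At a limit of 2-fold over all listed reads, 5 families were lower.

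Single-start families as a whole took 27.8% of listed reads in mutant and 37.5% in heterozygous total RNA, a log2 ratio of -0.43. Within their reads bantam held 9.03% in mutant and 12.1% in heterozygous ovaries, a log2 ratio of -0.42. The summed share of the set, bantam included, was lower in the mutant, and bantam was lower again within it. Not all members were lower: 30 of the 48 families had a lower share in the mutant. The sum rests in part on a few frequent families, since the most frequent in heterozygous RNA had 7.24% there and 3.48% in the mutant. The share of listed reads that resembled 2S rRNA, a short ribosomal RNA of flies, was 4.94% in mutant and 2.52% in heterozygous total RNA. With those reads taken out of the total, the bantam log2 ratio was -0.82.

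The families next to bantam in level did not move alike. In heterozygous total RNA a 22 nt family stood above bantam at 7.24% and a 23 nt family below it at 3.97%. In mutant total RNA the order of the 3 was the 23 nt family at 4.18%, the 22 nt family at 3.48% and bantam at 2.51%. The log2 ratio of mutant over heterozygous share was -1.06 for the 22 nt family and 0.07 for the 23 nt family, with bantam between them at -0.85. None of the counting intervals of these neighbours overlapped that of bantam in the same library.

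**Figure D1:**
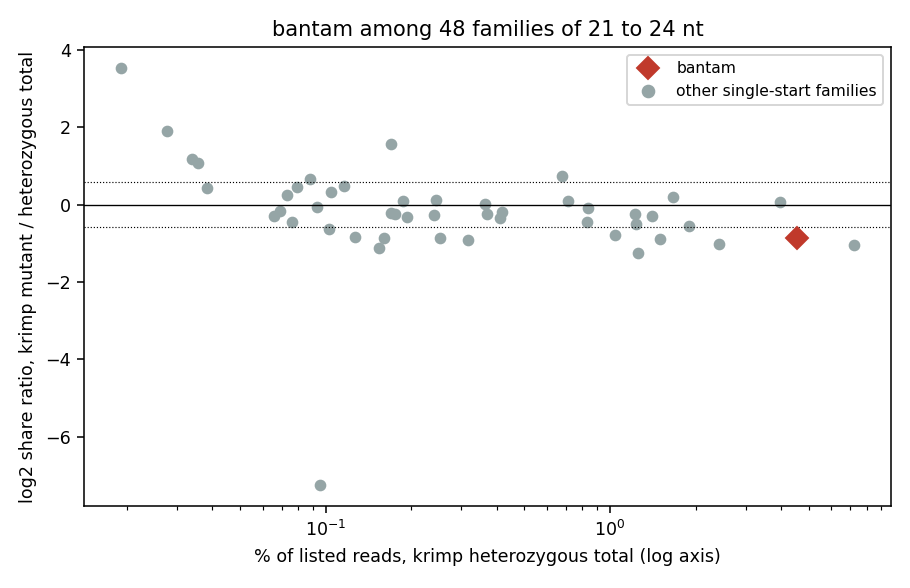
Each point is one of 48 single-start families; the x axis gives its percent of listed reads in krimp heterozygous total RNA and the y axis the log2 ratio of krimp mutant over krimp heterozygous share, with dotted lines at 1.5-fold. bantam lies at 4.54% and -0.85, below the median of -0.24, and 9 families lie lower.

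The most frequent bantam form held nearly the same share of bantam reads in both total libraries, while some rarer forms differed. The 23 nt sequence and the forms 1 and 2 bases shorter at the 3′ end are printed because they hold most bantam reads.
23 nt form: tgagatcattttgaaagctgatt
22 nt form: tgagatcattttgaaagctgat
21 nt form: tgagatcattttgaaagctga
The 23 nt sequence had 365455 reads in mutant and 798620 in heterozygous total RNA, which was 70.3% and 70.4% of bantam reads, with overlapping intervals. The change of 0.10 percentage points was smaller than in all but 1 of the other 47 single-start families, whose modal sequence moved by a median of 4.55 points in either direction. The 22 nt form was 21.95% of bantam reads in mutant and 20.3% in heterozygous ovaries. The 21 nt form was 4.29% in mutant and 5.78% in heterozygous RNA, a ratio of 0.74. The 20 nt form, the shortest length the files list, was 0.103% in mutant and 0.106% in heterozygous RNA, with overlapping intervals. Mean length was 22.72 nt for mutant and 22.70 nt for heterozygous bantam reads.

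**Figure D2:**
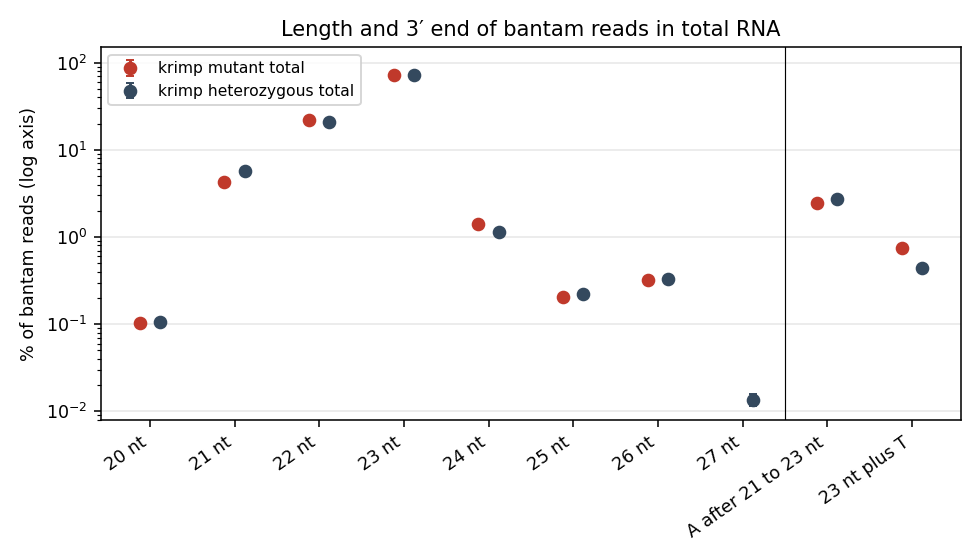
Percent of bantam reads (log axis) by length and, right of the line, in 2 classes of 3′ end, for krimp mutant (red, left of each pair) and krimp heterozygous (dark, right) total RNA; bars are exact 95% intervals and mostly lie within the points. The 23 nt reads were 71.5% in mutant and 71.8% in heterozygous RNA, and the 23 nt sequence with 1 more T stood apart between the libraries at 0.745% and 0.441%; 27 nt was listed in the heterozygote only.

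A small part of bantam reads ended in A that the 23 nt sequence does not hold at that place. Whether these bases match the precursor was not analysed here. The most frequent one after 22 nt and the 3 that differ in their number of A after 23 nt are printed, with those bases in capitals.
22 nt plus 1 A: tgagatcattttgaaagctgatA
23 nt plus 1 A: tgagatcattttgaaagctgattA
23 nt plus 2 A: tgagatcattttgaaagctgattAA
23 nt plus 3 A: tgagatcattttgaaagctgattAAA
Together the A-ended forms were 2.45% of bantam reads in mutant and 2.76% in heterozygous total RNA. This was near the median of the other single-start families, at 2.34% in mutant and 2.94% in heterozygous RNA, where the highest reached 60.05% in mutant and 48.3% in heterozygous RNA. The form with 1 A after 22 nt led, with 4630 reads in mutant and 11971 in heterozygous RNA.

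The number of A did not fall step by step. After 23 nt, the form with 3 A had 1682 reads in mutant and 3615 in heterozygous RNA, while the form with 2 A had 482 and 1234. The 3 A form thus outnumbered the 2 A form 3.49-fold in the mutant and 2.93-fold in the heterozygote. After 22 nt the same order held, with 576 reads with 3 A and 444 with 2 A in the mutant, and 1264 and 964 in the heterozygote. After 21 nt it did not, since 3 A had 187 reads against 1719 with 2 A in the heterozygote, and in the mutant 2 A had 794 while 3 A was not listed. Among the other single-start families with both forms listed after their modal sequence, 3 A outnumbered 2 A in 0 of 15 in mutant and 2 of 17 in heterozygous total RNA. This comparison is a description of families that share a library.

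**Figure D3:**
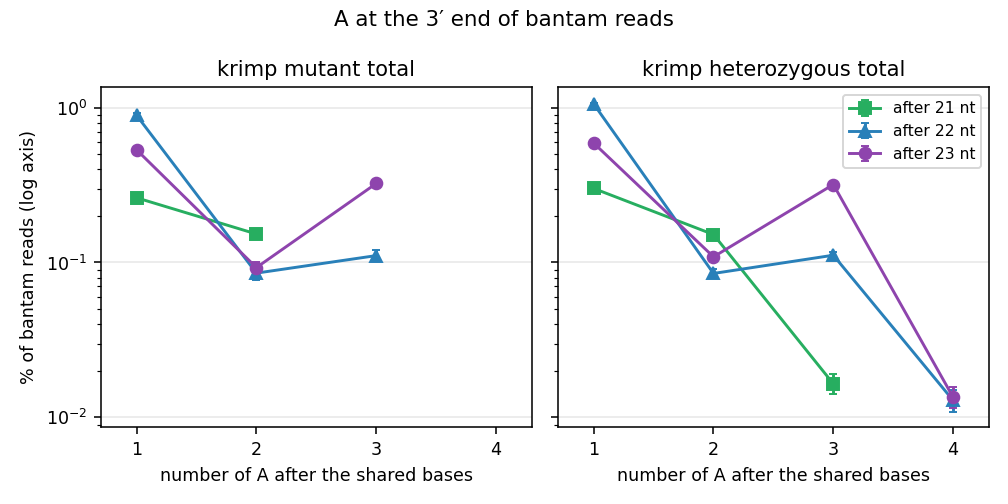
Percent of bantam reads (log axis) against the number of A that follow the first 21, 22 or 23 nt, in krimp mutant (left) and krimp heterozygous (right) total RNA, with exact 95% intervals; forms under 100 reads are not listed and not drawn. After 23 nt the value was higher at 3 A (0.323% and 0.319%) than at 2 A (0.0927% and 0.109%) in both libraries.

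The form that differed most between the libraries among those with over 1000 reads in both carried 1 more T after 23 nt. It is shown with that base in capitals.
23 nt plus T: tgagatcattttgaaagctgattT
It had 3875 reads, or 0.745% of bantam reads (0.722 to 0.769), in mutant and 4999 reads, or 0.441% (0.428 to 0.453), in heterozygous total RNA. Its share was 1.69-fold higher in the mutant, while the share of bantam itself was lower there. The shift was not particular to bantam. Of 31 other single-start families with such a form listed in both libraries, 25 had a higher share of it in the mutant. The median ratio over the 31 was 1.23, and 3 had a higher ratio than bantam. The rarer form with C after 23 nt had 155 reads in the mutant and 174 in the heterozygote, a 1.94-fold higher share of bantam reads in the mutant.

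The mutant listed 18 bantam sequences and the heterozygote 25, of which 17 were in both. The 8 listed in the heterozygote alone had at most 187 reads each, close to the read minimum. The mutant alone listed a 23 nt sequence with the substitution A21G, with positions counted from 1 at the 5′ end, at 123 reads. That was 0.0237% of mutant bantam reads, and in the heterozygote up to 99 unlisted reads allow at most 0.00873%.

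The 5′ end was uniform at the depth of these files. No library listed a sequence that starts 1 to 3 nt before or after the bantam 5′ end, so each such sequence of 20 to 30 nt had at most 99 reads. Shorter ones could not be listed. The same was true in both total libraries of 21 of the other 47 single-start families. Just outside the rule were sequences with 1 mismatch in the first 18 nt. There were 9 in mutant total RNA with 1627 reads in all, and 39 in heterozygous total RNA with 9740 reads. The most frequent was the 23 nt sequence with T6G, at 292 reads in mutant and 652 in heterozygous RNA, which is 0.0799% and 0.0816% of reads of the 23 nt sequence. Of 13 substitutions of the 23 nt sequence listed in both libraries, the lowest ratio of mutant over heterozygous share was 0.62, at G13A, and the highest 1.13, at A15G. The 13 include T23A, which is the same sequence as the 22 nt plus 1 A form above. The heterozygote listed 37 such substitutions and the mutant 14, and those listed in 1 library only have no ratio. Among them, G17T had 610 reads (0.0764%) and G17A 478 (0.0599%) in the heterozygote. In the mutant both lay below T12C, the least frequent one listed there, at 108 reads (0.0296%). Their shares thus differed more between the libraries than that of G13A. Families with the same bases 2 to 8 but another start of the sequence were scarce, with 106 reads in mutant and 527 in heterozygous total RNA.

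In immunoprecipitates from ovaries bantam was found at trace level. The 23 nt sequence had 279 reads in krimp mutant Piwi, 219 in krimp heterozygous Piwi and 180 in krimp heterozygous AGO3. These were the only bantam sequences those libraries listed. In RPM, here reads per 1000000 listed reads, these were 17.7, 11.6 and 23.01, against 25124 in krimp mutant and 45421 in krimp heterozygous total RNA. The krimp mutant Aub, krimp heterozygous Aub, aub mutant AGO3 and Oregon R AGO3 libraries listed no bantam sequence. With up to 99 unlisted reads of a sequence, the limit per sequence on the same scale was 18.4 in krimp mutant Aub, 24.8 in krimp heterozygous Aub, 21.6 in aub mutant AGO3 and 122 in Oregon R AGO3. These limits lie near or above the traces seen with Piwi, so the lack of a listing does not show less bantam with Aub. Reads resembling 2S rRNA made up 53.7% of krimp mutant Aub, 66.3% of krimp heterozygous Aub, 93.7% of aub mutant AGO3 and 82.98% of Oregon R AGO3 listed reads, against 6.30% of krimp heterozygous AGO3, and their part in what was listed was not tested.

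**Figure D4:**
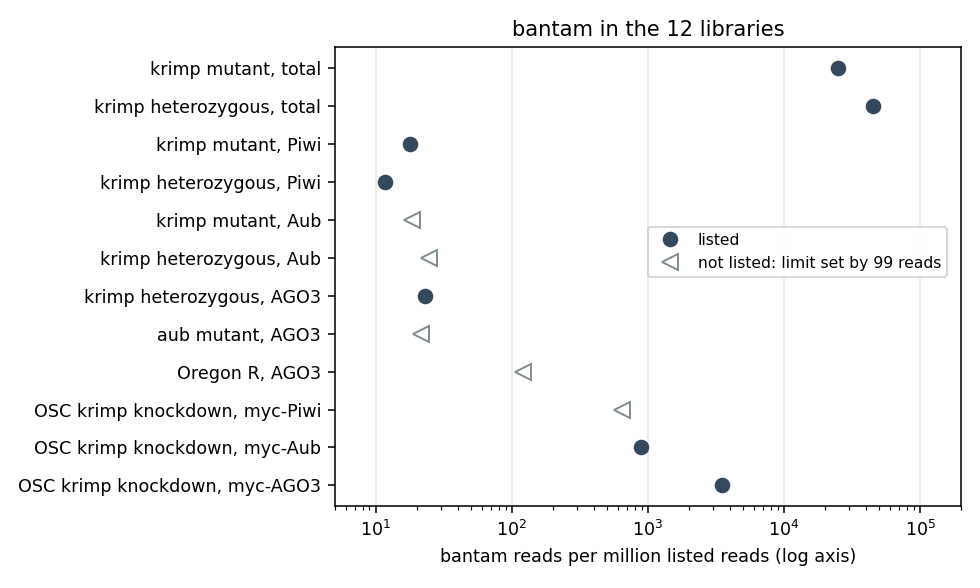
bantam RPM of listed reads (log axis) in each of the 12 libraries; filled points are listed values and open triangles the upper limit for 1 unlisted sequence, set by 99 reads. The total libraries lie at 25124 and 45421, while the 3 ovary immunoprecipitates that list bantam lie between 11.6 and 23.01.

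Relative to total RNA of the same genotype, the bantam share was 1416-fold lower in krimp mutant Piwi, 3904-fold lower in krimp heterozygous Piwi and 1974-fold lower in krimp heterozygous AGO3. For the 23 nt sequence alone, which does not depend on forms that fall under the read minimum, the folds were 995, 2748 and 1390. The folds depend strongly on the reads they are taken over. Over listed reads of 20 to 24 nt, bantam was 125-fold lower in krimp mutant Piwi, 507-fold lower in krimp heterozygous Piwi and 1378-fold lower in krimp heterozygous AGO3. Over reads of the single-start families alone, it was 3.26-fold, 5.15-fold and 41.0-fold lower in the same libraries. These reads include a 24 nt family with 129 reads in mutant and 23778 in heterozygous total RNA. It had 1278 reads in mutant Piwi, 4648 in heterozygous Piwi and 57598 in heterozygous AGO3, the most of any single-start family in the last 2. The single-start folds depend on this family to unlike degrees. In heterozygous AGO3 the next most frequent single-start family had 1328 reads, so the 41.0-fold value rests mostly on the 24 nt family. In mutant Piwi the 22 nt family next to bantam in level had more reads than it, at 1698. Folds without the 24 nt family were not calculated, so the order of the 3 single-start folds is not read as a difference between the proteins. At the proportion seen in total RNA, the 22 nt form would have had 87.1, 63.2 and 52.0 reads in these libraries, below the minimum of 100. The files therefore cannot show whether the length forms of the traces differed from those in total RNA.

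The neighbours of bantam in level had more reads in these libraries, from 234 to 1698. To match the forms compared, each was taken by its most frequent sequence alone, as for the bantam folds of 995, 2748 and 1390. The sequence of the 23 nt family was 932-fold lower in mutant Piwi, 2295-fold lower in heterozygous Piwi and 1121-fold lower in heterozygous AGO3 than in total RNA, close to bantam. That of the 22 nt family was 273-fold, 952-fold and 419.8-fold lower in the same 3 libraries, a smaller gap than for bantam. Families of lower level pass the read minimum only with a higher ratio, so bantam is set only against these neighbours.

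Between the Piwi libraries the bantam trace went the other way from total RNA, at 17.7 RPM in krimp mutant and 11.6 in krimp heterozygous ovaries, a 1.52-fold higher value and a log2 ratio of 0.61. Of the 14 single-start families listed in both Piwi libraries, bantam included, 13 had a higher share in mutant Piwi, and the median of the log2 ratios was 1.01. The exception was the 24 nt family, with 1278 reads in mutant and 4648 in heterozygous Piwi. The same count over all families listed in both Piwi libraries is not given here. The 2S rRNA share of listed reads was 24.5% in mutant Piwi and 7.73% in heterozygous Piwi. With those reads taken out of the totals, the log2 ratio of bantam was 0.90.

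In OSC with krimp knocked down, bantam was listed with 2 of the 3 tagged proteins, which were purified with an anti-myc antibody for myc-Piwi and with Aub and AGO3 antibodies for the others. The myc-AGO3 library had 1364 bantam reads, or 0.349% of listed reads (0.331 to 0.368). The myc-Aub library had 103 reads, or 0.0888% (0.0725 to 0.108), and myc-Piwi listed none, with a limit of 0.0643% per sequence. In myc-AGO3 bantam had rank 3 of 18 single-start families listed. The myc-AGO3 share lay above the myc-Aub interval and above the myc-Piwi limit. Of the 48 single-start families, 18 were listed in myc-AGO3, 6 in myc-Aub and 3 in myc-Piwi. More listings with myc-AGO3 were thus not particular to bantam, and the order of shares over these families was not compared. No total RNA library of OSC was analysed here, so these shares cannot be set against the level in those cells. These libraries listed between 116014 and 390366 reads, and 2S rRNA made up 45.7% of myc-AGO3, 6.78% of myc-Aub and 1.08% of myc-Piwi listed reads.

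The myc-AGO3 library held a bantam form that was rare in ovaries. It is printed because it was as frequent there as the 22 nt form.
20 nt form: tgagatcattttgaaagctg
The 23 nt, 22 nt and 20 nt forms had 984, 193 and 187 reads in myc-AGO3, and the 21 nt form was not listed. The 20 nt form was thus 13.7% of listed bantam reads (11.9 to 15.6), against 0.106% in krimp heterozygous total RNA of ovaries. At the proportion of heterozygous total RNA it would have had 1.48 reads, and the 21 nt form 80.9. A 20 nt form was listed for 5 of the 18 single-start families in myc-AGO3, bantam among them. In all 5 its share was higher there than in heterozygous total RNA, so the higher share was not particular to bantam. Since a form is listed only at 100 reads or more, families with few reads there can show a 20 nt form only at a high share. The shares are therefore not compared between families. Reads of 20 nt were 6.32% of all listed reads in myc-AGO3 and 6.83% in heterozygous total RNA. The cells, the purification and the library all differ between the samples compared, and their parts cannot be told apart.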

How the data were processed

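Small RNA was sequenced from 9 ovary and 3 OSC samples. Per the labels' protocols, total RNA was cut from gels at 18 to 29 nt, protein-bound RNA was recovered with specific antibodies, and a TruSeq Small RNA kit was used. The authors deposited, for each library, distinct sequences of 20 to 30 nt with whole-number read counts, not normalized and at least 100 each, a minimum read from the values. The submitters' processing notes name genome build dm3; the sources used here give no trimmer, aligner or reason for the minimum. The sums of the listed reads are therefore not depths, and a sequence not listed may have up to 99 reads.

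The 23 nt sequence was found in the krimp heterozygous total file by its length and read count, and members, families and 3′ forms were assigned by exact matching of the first 18 nt in Python 3.11.15 with scipy 1.17.1. The members, lists and thresholds were chosen with earlier results of these data known. Assignment was run on simulated families without read errors, which checks the code only and not misassignment in the deposited reads. Reads resembling 2S rRNA were those sharing 16 nt with the most abundant aub mutant AGO3 sequence. A single-start family had under 10% of its own reads starting up to 3 nt away in both total libraries. No table of mature or precursor microRNAs was used here, so other microRNAs are not named, and the planned rule for naming them, the list of cell death microRNAs, the opposite arm and the precursor match were not analysed here; single-start families took their place. The gene symbol and chromosome arm came from the RefSeq gene table of Release 6. Planned prefix, denominator and read-minimum alternatives are in the closing section.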

Additional observations from a re-analysis of the deposited data

Results flagged for a closer look

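The share of bantam was lower in krimp mutant than in krimp heterozygous total RNA, with a log2 ratio of -0.85, and higher in krimp mutant than in krimp heterozygous Piwi immunoprecipitates, with a log2 ratio of 0.61. The pair was singled out because the same genotype comparison had opposite signs in the 2 kinds of library. The difference between them was not tested, since each group had 1 library.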

How the results depend on the processing

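Of 58 alternatives over 8 results, 33 left the value within counting error or, for a count, within 1.5 times. For bantam in total RNA, the log2 ratio of -0.85 became -0.86 with 1 mismatch allowed, -0.99 over reads of 20 to 24 nt, -0.82 without 2S rRNA, -1.07 over sequences of at least 1000 reads, -0.42 over single-start families, and 0.59 with each sequence counted once, where only the number of listed sequences counts. Likewise counted once, the 23 nt share difference of -0.28 points became 2.89 and the mean length difference of 0.016 nt became -0.138. For the 23 nt sequence alone, the log2 ratio of immunoprecipitate over total was -9.96 in mutant Piwi (reported -10.47), -11.42 in heterozygous Piwi (-11.93) and -10.44 in heterozygous AGO3 (-10.95). Over reads of 20 to 24 nt these were -6.96, -8.98 and -10.42, and counted once -5.25, -5.34 and -3.35. Over single-start families they were -1.70, -2.36 and -5.36. The last 2 values depend most on a 24 nt family frequent in heterozygous Piwi and AGO3. Without 2S rRNA, mutant Piwi was at -10.14. The Piwi ratio of 0.61 between genotypes became 1.03 over reads of 20 to 24 nt and 0.24 over single-start families. The 13 single-start families past 1.5-fold lower became 5 at 2-fold and 4 over single-start reads. The causes were not tested. The single-start alternatives, the family counts and the folds of the most frequent sequences of neighbours were chosen after seeing the data. No immunoprecipitate kept bantam at 1000 reads. Aub, Oregon R and aub mutant libraries gave no value. Alternatives over all microRNAs or the precursor were not run. No paired analysis was possible because each group had 1 library.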
